A study of Mus musculus with 100 samples.

Results

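The data describe the first day after rupture of the anterior cruciate ligament in the knee of STR/ort mice, an inbred strain that develops osteoarthritis readily. They comprise 10 of the 100 libraries of the study, namely the 5 libraries labelled as injured STR/ort joints and the 5 labelled as uninjured STR/ort joints at 1-day post-injury, chosen by their labels and not by any measured value. The mice were 10 weeks old when a single compression of the right tibia ruptured the ligament. The contralateral knee, which received no load, served as the uninjured joint, so both groups come from animals given isoflurane and buprenorphine, an opioid analgesic, at injury. Each library is poly(A) RNA of a whole joint with traces of the surrounding soft tissue, and the labels name no genetic modification. C57BL/6 and MRL/MpJ joints at 1-day, 5 injured and 5 uninjured libraries each, enter the same fit and are used to show where the STR/ort response differs. For some genes STR/ort joints taken before injury (4 libraries, 0-day) are given as a further reference level, without a test. For the other genes the contralateral joint is the only reference printed.

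Rupture of a ligament opens the joint to bleeding and releases matrix fragments and cell contents. Resident synovial fibroblasts and macrophages then make chemokines of the CC class, which draw monocytes, and of the CXC class, which draw neutrophils, together with interleukin-6 family cytokines that act through the shared receptor chain gp130. Matrix metalloproteinases and ADAMTS enzymes cut collagens and aggrecan, the main cartilage proteoglycan, while TIMPs block them. Repair of the torn tissue brings fibroblasts that lay down collagens, which must be hydroxylated, folded and crosslinked before they bear load.

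The 10 libraries held between 8291716 and 13316883 counts. Defining genes of the labelled tissue were all measured, including Col2a1 of cartilage (mean 2415 CPM in injured and 2731 CPM in uninjured joints), Col1a1 of bone and ligament, the marrow neutrophil gene S100a9 (4191 and 4464 CPM) and fast muscle genes. CPM is the count of a gene relative to the total of its library, scaled by TMM factors to a common depth. Injured replicate 5 stood apart from its group. Over log2 levels its mean correlation was 0.989 with the other injured libraries and 0.990 with the uninjured libraries, whereas the other 4 injured libraries were closer to their own group (0.992 to 0.993) than to the uninjured joints (0.985 to 0.989). The summed level of 19 fast muscle genes was 62210 CPM in injured replicate 5, between 24270 and 35250 CPM in the other 4 injured joints, and between 45040 and 78700 CPM in the uninjured joints. Counts of genes called between injured and uninjured STR/ort joints that moved by more than 1.5 times without this library are given both ways.

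**Figure D1:**
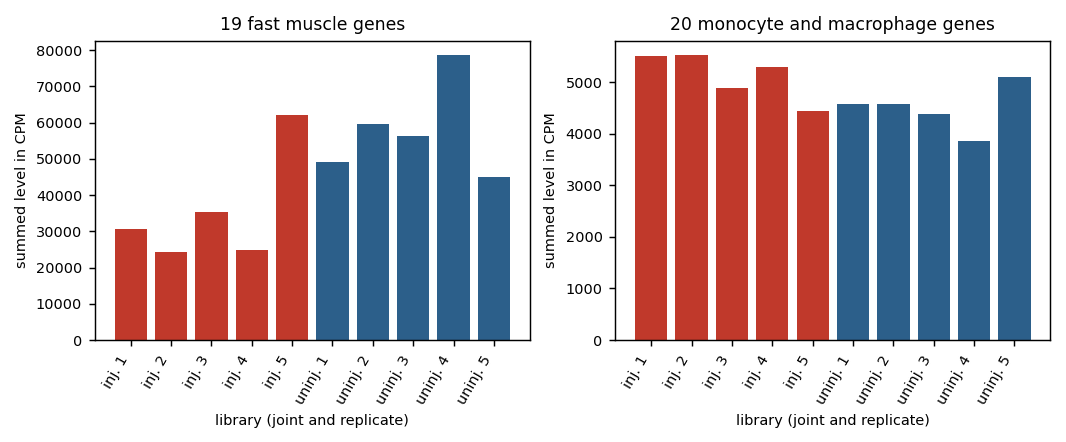
Summed level in CPM (vertical axis) of 19 fast muscle genes (left) and 20 monocyte and macrophage genes (right) in each of the 10 STR/ort libraries at 1-day, with injured joints in red and uninjured joints in blue. Injured replicate 5 has a muscle sum of 62210 CPM against 24270 to 35250 CPM in the other injured joints, while its macrophage sum of 4447 CPM, like the 4888 CPM of injured replicate 3, is within the uninjured range of 3864 to 5106 CPM.

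Of 17310 genes tested, 279 were called higher in injured STR/ort joints (1.61% of all genes tested) and 467 lower (2.7%), where a call needed a Benjamini-Hochberg adjusted p below 0.05 in edgeR's quasi-likelihood test and a fold change above 1.5. The genes that rose most include chemokines and interleukin-6 family cytokines. Among the lists examined, calls lower were most frequent in fast muscle, fat and tendon genes. Together these are 746 genes (4.31%). Levels of 874 genes (5.05%) were higher in every injured than in every uninjured joint, and those of 412 genes (2.38%) were lower in every injured joint. Without injured replicate 5 the calls came to 302 higher and 747 lower, so that the number of genes called lower depended on this library by more than 1.5 times. The split moved with the scaling as well. The share of calls that were higher was 37.4%, and it was 48.3% with 1 and 57.4% with 2 RUVg factors from the 25 housekeeping genes of the study, and 29.3% (233 higher and 563 lower) when the libraries were scaled by those genes.

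**Figure D2:**
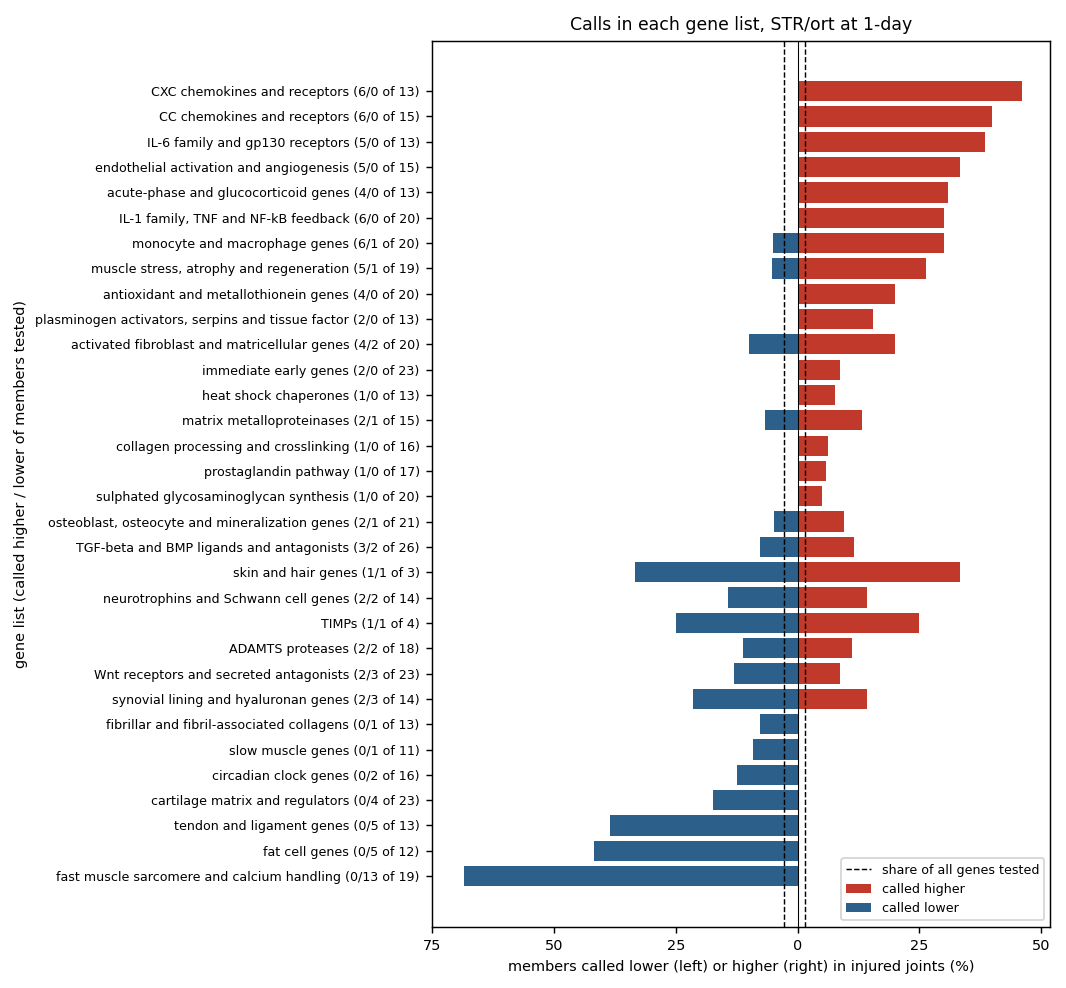
Share of the members of each gene list called lower (blue, left) or higher (red, right) in injured STR/ort joints at 1-day, in percent, for the lists with at least 1 call, with the share of all genes tested as dashed lines. The lists of CC and CXC chemokines and of the IL-6 family have only calls higher, and fast muscle, fat and tendon lists have only calls lower. Ccl24, a CC chemokine called lower, is not in the CC list.

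CC chemokines, the small proteins that recruit monocytes through receptors such as Ccr2, were called higher for 6 of 15 list members and lower for 0. Ccl24, a CC chemokine outside the list, was called lower (log2 fold change -2.31). The median log2 fold change of the list was 0.72, against -0.02 over all genes tested. Ccl7 on chromosome 11 (82045712 to 82047525, GRCm38) was measured at 35.3, 44.5, 35.9, 38.7 and 36.1 CPM in the 5 injured joints and at 3.69, 1.79, 0.56, 2.74 and 0.577 CPM in the uninjured joints. Every injured joint was therefore far above every uninjured joint, and the log2 fold change was 4.29 ± 0.34 (SE, adjusted p = 7.71e-10), or 19.5-fold. Its neighbour Ccl2 (chromosome 11, 82035577 to 82037452), the main monocyte attractant, was at 42, 36.8, 32.8, 33 and 22.2 CPM in injured and 6.78, 2.89, 0.934, 1.92 and 1.32 CPM in uninjured joints. The lowest injured value of Ccl2 was that of replicate 5 and lay above all uninjured values (log2 fold change 3.52 ± 0.29, adjusted p = 7.90e-10). Ccr2, the receptor of both ligands, rose by 0.72 in log2 (adjusted p = 4.51e-05). Ccl12 was also called, with counts in both groups (log2 fold change 1.95, adjusted p = 0.00537), and Ccl20, called as well, had 0 counts in the 5 uninjured libraries, so no fold is given for it. Ccl3 and Ccl4, typical of activated neutrophils and macrophages, did not pass the test (log2 fold changes 0.35 and 0.79, adjusted p = 0.293 and 0.213).

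CXC chemokines were called higher for 6 of 13 members and lower for 0. The members Cxcl1, Cxcl2 and Cxcl3 are ligands of the neutrophil receptor Cxcr2 and lie in 1 cluster on chromosome 5. The levels of Cxcl1 were 20, 31.1, 28.4, 29.4 and 35.7 CPM in injured joints and 1.05, 1.90, 1.31, 6.76 and 4.62 CPM in uninjured joints. The groups did not overlap, and the log2 fold change was 3.19 ± 0.28 (adjusted p = 2.26e-09), while the mean before injury (0-day) was 20.7 CPM. Cxcl3 was at 5.72, 8.81, 7.38, 6.51 and 1.62 CPM in injured joints and between 0.165 and 0.301 CPM in uninjured joints, with the lowest injured value again in replicate 5 (log2 fold change 4.75 ± 0.42, adjusted p = 2.39e-09). Cxcl2 rose by 3.02 ± 0.26 in log2 (adjusted p = 2.14e-09) from 0.362 to 3.09 CPM. Cxcl5, another Cxcr2 ligand, rose by 3.3, and Cxcl14, a chemokine of fibroblasts and epithelia, by 1.82 ± 0.15 (adjusted p = 7.90e-10). The levels of Cxcl14 were 303, 303, 313, 236 and 310 CPM in injured and 63.8, 96.7, 74.2, 83.7 and 90.2 CPM in uninjured joints, so that no values overlapped. The receptor Cxcr2 itself did not pass the test (log2 fold change 0.08, adjusted p = 0.603).

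The IL-6 family was called higher for 5 of 13 members and lower for 0, with a median log2 fold change of 0.43. Il11, a fibroblast cytokine that signals through gp130, was at 17.1, 22.1, 13.2, 18.2 and 12.3 CPM in injured joints and at 0.98, 1.59, 1.03, 1.10 and 0.494 CPM in uninjured joints. This 15.8-fold rise (log2 3.98 ± 0.32, adjusted p = 7.71e-10) was larger than the spread in either group. Il6 (chromosome 5, 30013114 to 30019975) was at 5.55, 7.05, 5.38, 5.26 and 9.92 CPM against 0.603, 0.798, 0.374, 0.365 and 0.989 CPM. Injured replicate 5 had the highest Il6 level of the group, and the log2 fold change was 3.35 ± 0.32 (adjusted p = 7.11e-09). Lif, Osmr, the receptor of oncostatin M, and Socs3, the feedback inhibitor of gp130 signals, were the other members called, and Osmr and Socs3 rose by 1.00 and 1.41 in log2.

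For the 3 Cxcr2 ligands Cxcl1, Cxcl2 and Cxcl3 and for Il6, the 150 bases before the transcription start are printed from RefSeq (GRCm38.p6, plus strand of chromosome 5). Matches to the kappa B motif, the binding sequence of NF-kB, are in capitals. These genes were picked by hand from those called higher, and Ccl2, Ccl7 and Cxcl5 had no promoter entry. The letters are of the reference genome and were not read in STR/ort.
Cxcl3, chr5:90785951-90786100: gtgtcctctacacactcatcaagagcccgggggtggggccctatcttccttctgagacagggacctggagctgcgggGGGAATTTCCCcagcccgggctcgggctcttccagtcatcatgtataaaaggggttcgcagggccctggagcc
Cxcl1, chr5:90891095-90891244: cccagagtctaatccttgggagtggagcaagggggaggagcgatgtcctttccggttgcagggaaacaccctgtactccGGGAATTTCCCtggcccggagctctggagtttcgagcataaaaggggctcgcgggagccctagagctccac
Cxcl2, chr5:90903749-90903898: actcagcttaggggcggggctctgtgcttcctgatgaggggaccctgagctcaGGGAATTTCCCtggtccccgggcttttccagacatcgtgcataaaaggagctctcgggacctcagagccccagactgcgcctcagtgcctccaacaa
Il6, chr5:30012964-30013113: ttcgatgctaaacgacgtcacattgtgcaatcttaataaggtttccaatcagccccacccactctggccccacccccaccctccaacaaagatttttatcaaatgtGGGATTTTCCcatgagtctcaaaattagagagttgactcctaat
The capitals end 62, 60, 86 and 34 bases before the start of Cxcl3, Cxcl1, Cxcl2 and Il6, and the 11 letters are the same in all 3 Cxcr2 ligands. A RefSeq promoter was found by symbol for 12794 of the 17310 genes tested, 198 of the 279 called higher and 323 of the 467 called lower. Within 250 bases before the start, on either strand, the kappa B motif matched 15.2% of the promoters of genes called higher, 8.05% of those called lower and 8.9% of all promoters. The AP-1 letters TGANTCA matched 11.1%, 7.74% and 4.9% of the same sets, and TATAAA matched 19.7%, 11.8% and 7.61%. The MEF2 motif of muscle genes matched 1.52%, 6.81% and 2.8%, TTCNNNGAA, the STAT letters, 7.07%, 5.57% and 6.22%, and TGCNCNC, the metal response core, 49.5%, 55.4% and 51.5%. Each motif was searched on its own, overlaps between motifs were not removed, and these shares describe letters and not binding.

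Members of the IL-1 and TNF list, which holds the upstream alarm cytokines and the genes they induce through NF-kB, were called higher for 6 of 20 and lower for 0. Tnfaip6, a secreted hyaluronan-binding protein, was at 33.7, 34.3, 22.9, 33.5 and 38 CPM in injured and 3.01, 6.88, 4.11, 4.47 and 4.45 CPM in uninjured joints. No values overlapped (log2 fold change 2.82 ± 0.25, adjusted p = 2.38e-09). Il1b, Tnf and Il33 rose less, by 0.77, 0.79 and 1.06 in log2, as did the receptors Il1r1 (0.96 ± 0.11) and Il1rl1 (0.90 ± 0.12), which bind IL-1 and IL-33. The feedback genes Tnfaip3 and Nfkbia did not pass the test, with log2 fold changes of -0.01 and 0.17. Among 17 prostaglandin genes Ptgs2, the inducible cyclooxygenase, was the 1 called, at 10.7, 11.1, 6.42, 9.72 and 17.2 CPM in injured and 1.58 to 2.89 CPM in uninjured joints (log2 fold change 2.19 ± 0.25, adjusted p = 1.97e-07), with a mean of 10.6 CPM at 0-day. In the list of acute-phase and glucocorticoid genes 4 of 13 members were called higher. These were Saa3 at 2.44 ± 0.42, Pdk4 at 1.5 ± 0.28, Serpina3n at 0.92 and Hp, haptoglobin, at 0.87 ± 0.12 in log2. Fitted values were above 0 for 8 members and below 0 for 5, among them the acute-phase gene Orm1 at -0.40, which was not called. Before injury (0-day) the mean of Pdk4 was nearer that of the injured than of the uninjured joints, without a test. Of 18 interferon-stimulated genes 0 were called by edgeR, and their median log2 fold change was -0.08.

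**Figure D3:**
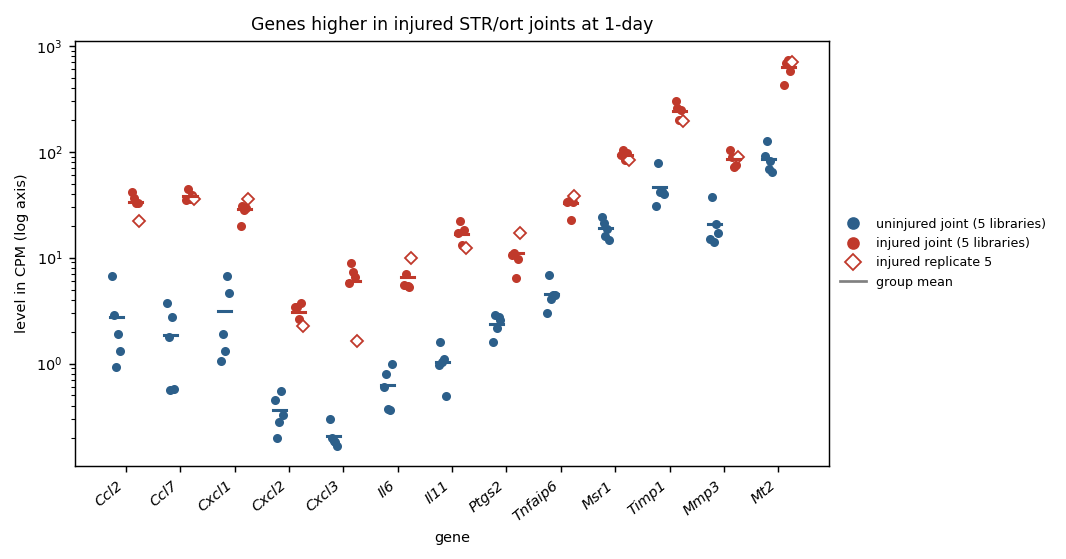
Level in CPM (vertical, log axis) of 13 genes called higher, in the 5 uninjured (blue) and 5 injured (red) STR/ort libraries at 1-day, with injured replicate 5 as an open diamond and group means as bars. For every gene shown the lowest injured value is above the highest uninjured value, and replicate 5 is the lowest injured library for Cxcl3 (1.62 CPM) and the highest for Il6 (9.92 CPM).

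Monocyte and macrophage genes were called higher for 6 of 20 members and lower for 1. Msr1 (chromosome 8, 39543232 to 39642750), the macrophage scavenger receptor, had the smallest adjusted p of all genes, 7.05e-13. It was at 93.3, 105, 83.8, 98 and 84 CPM in injured and 24, 21.3, 15.9, 18.4 and 14.7 CPM in uninjured joints, a narrow spread in both groups beside a log2 fold change of 2.28 ± 0.13. Cd14, the lipopolysaccharide co-receptor, rose by 1.20 ± 0.12, and Fcgr1, Clec4d and Clec4e by 1.37, 0.61 and 0.81. General macrophage genes did not pass the test, among them Csf1r (200 and 208 CPM), Adgre1 (55.1 and 46.1 CPM) and Lyz2 (2143 and 2125 CPM). Gpnmb, a lysosomal glycoprotein of mature macrophages and osteoclasts, fell by 1.40 in log2 (adjusted p = 3.13e-07).

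Retnla and Ccl24 were among the genes that fell most. Retnla, a secreted protein of alternatively activated and resident macrophages, was at 3.93, 2.98, 2.21, 0.95 and 4.51 CPM in injured and 36, 15, 14.1, 17.6 and 18.9 CPM in uninjured joints. All injured values were below all uninjured values, and the log2 fold change was -2.86 ± 0.28 (adjusted p = 1.37e-08). Ccl24, an eosinophil attractant, fell from 4.47 to 0.909 CPM (log2 fold change -2.31 ± 0.25, adjusted p = 6.67e-08), and it is not a member of the CC list above.

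By edgeR 0 genes were called in the lists of neutrophil granules (15 tested), erythroid cells (10), B cells (12), T cells (11) and mast cells (9), with medians from -0.17 to -0.02 in log2. The neutrophil sum was between 13930 and 16820 CPM in injured and between 15100 and 19730 CPM in uninjured joints. Granule genes are also made by marrow precursors, which whole joints contain, and the source of these counts cannot be told apart. In the cell cycle list 0 of 21 were called, and 19 of 21 had a fitted value above 0 with a median of 0.06.

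Vascular activation genes were called higher for 5 of 15 members, while 0 of 13 stable endothelial markers were called (median log2 fold change 0.16). Selp, the P-selectin that slows leukocytes on the vessel wall, was at 40.8, 34.9, 39.4, 36.9 and 33.8 CPM in injured and 22.4, 18.6, 17.3, 20.4 and 19.3 CPM in uninjured joints. The groups did not overlap (log2 fold change 0.90 ± 0.10, adjusted p = 1.97e-07). Sele, the E-selectin, rose by 1.02, Apln, an angiogenic peptide, by 1.14, Angptl4 by 1.6 ± 0.18 and Hif1a, the oxygen-regulated transcription factor, by 0.75 ± 0.10. Stress genes rose in the antioxidant list for 4 of 20 members. Mt2, a metal-binding metallothionein, was at 427, 690, 734, 584 and 703 CPM in injured and 91, 125, 68.2, 82.4 and 64.9 CPM in uninjured joints. This 7.17-fold rise of Mt2 (log2 2.84 ± 0.28, adjusted p = 1.36e-08) came with one of 1.92 ± 0.18 for the adjacent Mt1. Hmox1, haem oxygenase, rose from 52.9 to 110 CPM (log2 fold change 1.03 ± 0.11, adjusted p = 3.04e-08), and Hspb1, a small heat shock protein, rose by 1.55 ± 0.30 as the 1 call among 13 chaperones.

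Matrix-degrading enzymes and their inhibitors changed in part. Of 15 matrix metalloproteinases Mmp3, stromelysin, and Mmp19 were called higher and Mmp15 lower, the last not with 1 or 2 RUVg factors. Mmp3 was at 103, 89.9, 72, 75.5 and 88.3 CPM in injured and 15.1, 37, 14, 20.7 and 17 CPM in uninjured joints, with no overlap (log2 fold change 2.04 ± 0.22, adjusted p = 1.12e-07). Of 18 ADAMTS genes Adamts4, an aggrecanase, rose by 1.61 ± 0.20 and Adamts1 by 1.10 ± 0.15. Before injury (0-day) the mean of Adamts1 was nearer that of the injured than of the uninjured joints, a comparison made without a test. Adamts16 fell by 1.04, and Adamts19, present at 0.529 CPM in uninjured joints, was detected in 1 of 5 injured libraries. Of these 2 calls lower 1 was lost without injured replicate 3 or uninjured replicates 2, 3 or 4. Among the 4 TIMPs Timp1 and Timp4 went opposite ways, and without injured replicates 2 or 5 or uninjured replicates 1 or 3 a second TIMP was called lower (Timp2, at -0.65 without injured replicate 5). Timp1 was at 299, 261, 200, 250 and 194 CPM in injured and 30.5, 78.9, 41.9, 42.8 and 39.5 CPM in uninjured joints, and Timp4 at 1.02, 0.992, 1.72, 1.39 and 1.71 CPM against 6.86, 4.89, 5.98, 3.83 and 5.36 CPM. Neither pair of groups overlapped, and the log2 fold changes were 2.35 ± 0.20 (adjusted p = 1.03e-09) and -1.97 ± 0.19 (adjusted p = 9.39e-09). In the plasminogen list 2 of 13 were called. Plau, the urokinase that activates plasminogen, rose by 1.21 ± 0.11.

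Genes of matrix assembly by fibroblasts were mostly not called. Of 13 fibrillar and fibril-associated collagens 0 rose and Col14a1 fell, and of 16 collagen processing genes Lox alone was called, with 2 called without injured replicate 3 or uninjured replicate 2. Col1a1 was at 8399 ± 1213 CPM in injured and 8630 ± 1297 CPM in uninjured joints (SD, n = 5 each), and its log2 fold change of -0.06 ± 0.14 did not pass the test. Col3a1, the collagen of early repair tissue, was at 3728 ± 522 and 3916 ± 1296 CPM (adjusted p = 0.827). Lox, the enzyme that crosslinks collagen, rose from 131 to 280 CPM (log2 fold change 1.08 ± 0.13, adjusted p = 4.31e-07). Col14a1, which coats collagen fibrils, was at 49.3, 58, 52, 53.1 and 104 CPM in injured and 99.5, 179, 94.2, 161 and 97.9 CPM in uninjured joints. Injured replicate 5 overlapped the uninjured joints and the other 4 did not, and the log2 fold change was -1.02 ± 0.17 with all libraries (adjusted p = 8.85e-05) and -1.25 without it. In the list of activated fibroblasts 4 of 20 rose, among them Has2, hyaluronan synthase, by 1.73 ± 0.17 and Inhba, a subunit of activin, by 1.68 ± 0.18, and Aspn and Nov fell by 1.03 and 1.5. Pdpn, podoplanin of activated synovial fibroblasts and osteocytes, was at 56, 60.6, 50, 54.5 and 51.3 CPM in injured and 15.1, 22.1, 16.6, 14.3 and 16.1 CPM in uninjured joints, far apart (log2 fold change 1.67 ± 0.14, adjusted p = 7.90e-10).

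Of 23 Wnt receptors and antagonists 2 were called higher and 3 lower, and those lower were the secreted antagonists Dkk2, Dkk3 and Frzb (log2 fold changes -1.38, -0.96 and -0.73). Dkk2 was at 7, 10.5, 8, 12.3 and 13.6 CPM in injured and 27.4, 31.6, 18.3, 33 and 22 CPM in uninjured joints, and the groups did not overlap (SE 0.19, adjusted p = 7.72e-06). Without injured replicate 5 Sfrp2 and Sost (log2 fold changes -0.64 and -0.65) were also called, making 5 lower. The antagonist Sfrp1 and the matricellular protein Wisp2 rose by 0.86 and 0.75. Among 26 TGF-beta and BMP genes Inhba, Fstl3 and Ltbp2 were called higher and 2 members lower, among them the BMP antagonist Grem1, which fell by 1.27, with 1 member lower without injured replicates 1, 2, 3 or 4 or uninjured replicate 1. Of 14 neurotrophin and Schwann cell genes 2 were called higher, among them Bdnf, a neurotrophin, by 1.86 ± 0.45, whereas neurotrophin-3 (Ntf3) and its receptor Ntrk3 fell, Ntrk3 by 2.09. Of the 2 calls lower 1 was lost without injured replicates 1 or 3 or uninjured replicates 4 or 5, and of the 2 higher 1 was lost with filterByExpr. Ntrk3 was at 1.28, 2.42, 1.03, 1.17 and 0.631 CPM in injured and 6.63, 5.48, 4.95, 4.29 and 5.36 CPM in uninjured joints, without overlap (SE 0.21, adjusted p = 2.07e-08).

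Of 14 synovial lining genes the hyaluronan synthases Has1 and Has2 were called higher and Htra4, Cd55 and Clic5 lower, with 1 call higher without uninjured replicate 1. Htra4 (chromosome 8, 25024928 to 25038962), a secreted serine protease, was at 8.03, 7.49, 6.07, 8.85 and 24.9 CPM in injured and 53.4, 70.7, 86.7, 55.7 and 69.7 CPM in uninjured joints. Injured replicate 5 was nearest to the uninjured joints but still below them, and the log2 fold change was -2.63 ± 0.26 (adjusted p = 1.30e-08) and -3.14 without that library. Cd55, a complement regulator of the synovial lining, fell by 0.70 ± 0.07 (adjusted p = 3.25e-08). In the tendon list 5 of 13 members were lower, the small proteoglycans Ogn, Prelp and Kera, the tendon membrane protein Tnmd and the tenascin Tnxb, with log2 fold changes from -0.98 to -0.65, with 7 lower without injured replicate 5, 3 without injured replicate 3 or uninjured replicates 2 or 4, and 1 with 2 RUVg factors. Omd, a small proteoglycan of bone, was at 19.7, 26.8, 22.8, 34 and 31.2 CPM against 63, 56.1, 46.7, 50 and 77.7 CPM, with no overlap (log2 fold change -1.15 ± 0.14, adjusted p = 3.76e-07). Itih5, which links hyaluronan in the matrix, had the smallest adjusted p of all genes that fell, 7.94e-10. Its levels were 56, 52.2, 54.5, 55.3 and 92.3 CPM in injured and 145, 172, 132, 160 and 144 CPM in uninjured joints, so that 4 injured joints lay within a few CPM of each other and replicate 5 lay between them and the uninjured joints.

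With all libraries, cartilage matrix genes had fitted values below 0 for 23 of 23 members, of which 4 were called lower. Cilp2, at 8.37, 19.4, 13.3, 14 and 19.6 CPM in injured and 34.7, 44.2, 37.3, 40.9 and 39.5 CPM in uninjured joints, was the clearest, with no overlap (log2 fold change -1.43 ± 0.19, adjusted p = 3.88e-06). Cytl1, Chad and Comp passed more narrowly (adjusted p = 0.0108, 0.0268 and 0.0387), and leaving out single libraries gave 1 (without uninjured replicate 5) to 5 calls (without injured replicate 5 or uninjured replicate 3), with 2 without injured replicates 1, 2 or 3 or uninjured replicate 1. The main cartilage components did not pass the test, with Col2a1 at -0.20 and Acan, aggrecan, at -0.12 in log2 and a list median of -0.15. Without injured replicate 5 the fitted values were no longer all below 0. Col9a1, Matn1 and Lect1 were then at 0.07, 0.06 and 0.11, and Col2a1 and Acan at -0.06 and -0.06. The list median ranged from -0.25 to 0 over the settings. Of the 14 osteoclast genes 0 were called by edgeR, and of 21 bone genes Pdpn and Enpp1 rose and Omd fell, with 1 higher without uninjured replicate 1 and 2 lower without injured replicate 5 or uninjured replicate 3. Unadjusted p values below 0.05 were found for 3844 of all genes (22.2%).

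Genes outside these lists were also among the 8 largest changes each way. Chl1, a neural cell adhesion molecule, was at 55.5, 48.7, 42.8, 43.5 and 66.6 CPM in injured and 2.11, 9.67, 5.23, 5.39 and 3.87 CPM in uninjured joints, so all injured joints were well above all uninjured joints (adjusted p = 7.71e-10). Card14, a scaffold protein that activates NF-kB, rose by 3.76 ± 0.44 in log2 (adjusted p = 3.20e-07). Nnat, neuronatin, was at 4.7, 5.73, 17.1, 15.1 and 21.5 CPM in injured and 67, 51.9, 63.4, 38 and 58.7 CPM in uninjured joints, with a wide spread but no overlap (log2 fold change -2.12 ± 0.25, adjusted p = 4.31e-07). Gpr1, a chemerin receptor, and Col6a6, a collagen VI chain, fell by 2.86 ± 0.43 and 2.36 ± 0.31, both from uninjured means below 5 CPM. The unnamed transcript 2210407C18Rik fell by 2.13 ± 0.47 (adjusted p = 0.00271) from levels near 1 CPM.

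**Figure D4:**
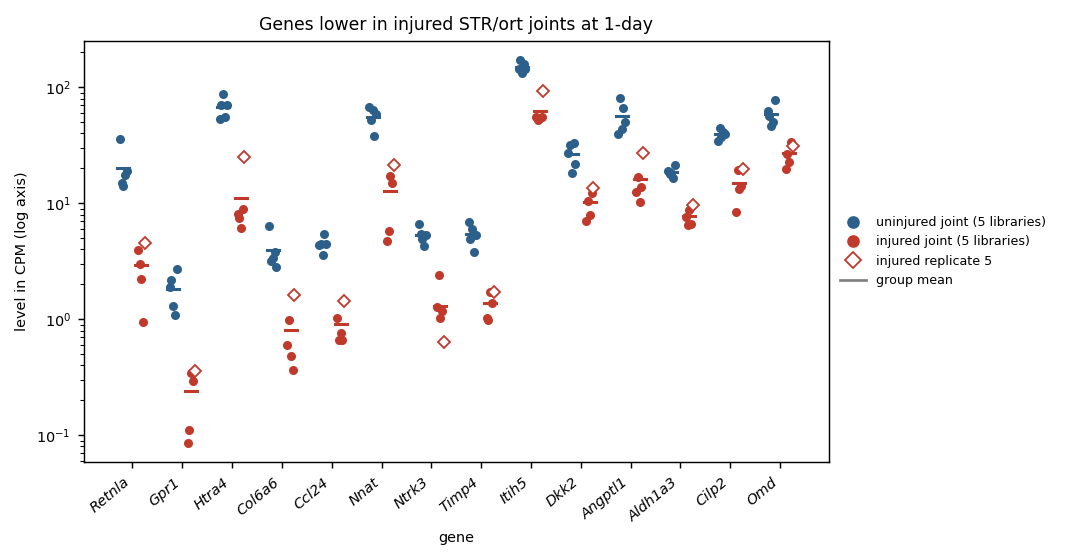
Level in CPM (vertical, log axis) of 14 genes called lower, in the 5 uninjured (blue) and 5 injured (red) STR/ort libraries at 1-day, with injured replicate 5 as an open diamond and group means as bars. For every gene shown the highest injured value is below the lowest uninjured value, and replicate 5 is the highest injured library for Htra4 (24.9 CPM), Itih5 (92.3 CPM) and Angptl1 (27.1 CPM).

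Fast muscle genes were called lower for 13 of 19 members, and all 19 had fitted values below 0 (median log2 fold change -0.72). The muscle is not part of the joint proper, and in bulk RNA fewer muscle fibres in a sample and less RNA per fibre cannot be told apart. Eno3, the muscle enolase, was at 564, 424, 610, 450 and 1048 CPM in injured and 1010, 1181, 1154, 1608 and 885 CPM in uninjured joints. Injured replicate 5 lay inside the uninjured range and the other 4 below it (log2 fold change -0.94 ± 0.22, adjusted p = 0.0041). Without replicate 5 the list had 18 calls, but it had 4 without injured replicates 1, 2 or 4, 3 without uninjured replicate 4, 8 without injured or uninjured replicate 3, 4 with 1 RUVg factor or with the STR/ort libraries fitted alone and 0 with 2 RUVg factors. Slow muscle genes were called lower for 1 of 11, the stress sensor Csrp3, and for 8 of 11 without replicate 5, and the level of Mybpc1 was 1204 CPM in that library against 284 to 352 CPM in the other injured joints. The part of muscle content in calls of other lists was not tested.

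Of 19 genes of muscle stress, atrophy and regeneration 5 rose and Mstn, myostatin, fell by 1.01, with a list median of -0.08, and without injured replicate 5 the calls were 5 higher and 4 lower. Ankrd1, a stretch-induced repressor of transcription, was at 287, 133, 171, 113 and 131 CPM in injured and 41.1, 39.6, 26.7, 39.5 and 23.7 CPM in uninjured joints, with no overlap (log2 fold change 2.27 ± 0.38, adjusted p = 1.03e-04). The ubiquitin ligases of muscle atrophy, Fbxo32 and Trim63, were higher than in the uninjured joints by 1.36 ± 0.25 and 1.40 ± 0.27. Before injury (0-day) the means of both genes were nearer those of the injured than of the uninjured joints, a comparison made without a test. Fat cell genes were called lower for 5 of 12, with the hormones leptin (Lep) and adiponectin (Adipoq) at -0.96 and -0.59 in log2, and for 2 without injured replicate 1, for 3 without injured replicate 2 or uninjured replicates 3 or 5 and for 1 with 2 RUVg factors. The fat sum was 664 to 1021 CPM in injured and 915 to 1168 CPM in uninjured joints, so the groups overlapped. Immediate early genes, which respond within minutes, were called for Fosl1 and Ier3, both higher, and Fos and Egr1 did not pass the test (-0.09 and -0.28). Without injured replicate 5, 6 immediate early genes were called lower, among them Egr1 (log2 fold change -1.11, adjusted p = 0.0334). Fos was then at -1.33 and did not pass the test (adjusted p = 0.0561). Of 3 skin genes tested Sbsn fell and Krt79 rose, and the call of Krt79 was lost without injured replicate 3 or uninjured replicates 1, 2 or 4, and that of Sbsn with 2 RUVg factors. Of 16 clock genes Dbp and Hlf fell by 0.84 and 0.68, with 1 call without injured replicate 1 or uninjured replicates 3 or 4 and 0 with 2 RUVg factors. Of 20 genes of glycosaminoglycan synthesis Csgalnact1 rose by 0.81 ± 0.12.

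The response was then compared with those of C57BL/6, a strain of moderate susceptibility to this injury, and MRL/MpJ, a strain known for its capacity to heal. Injury called 738 genes higher (4.26%) and 232 lower (1.34%) in C57BL/6, and 264 higher (1.53%) and 86 lower (0.497%) in MRL/MpJ. Of the 279 genes called higher in STR/ort, 187 were also called higher in C57BL/6 (67% of the STR/ort list, 25.3% of the C57BL/6 list) and 152 in MRL/MpJ (54.5% and 57.6%), with 133 in all 3 strains. Of the 467 called lower in STR/ort, 84 were shared with C57BL/6 (18% and 36.2%) and 65 with MRL/MpJ (13.9% and 75.6%). The interaction, that is the STR/ort response minus that of the other strain, was called for 460 genes against C57BL/6 (2.66%), 31 of them higher (0.179%) and 429 lower (2.48%). Against MRL/MpJ it was called for 28 genes (0.162%), 4 higher (0.0231%) and 24 lower (0.139%). Without injured replicate 5 the totals were 757 and 76, and leaving out other single STR/ort libraries brought the total against MRL/MpJ to as few as 7 (uninjured replicate 2). Cxcl14 was among those called against C57BL/6, with a larger rise in STR/ort (difference 0.87, adjusted p = 0.0132). The interactions against C57BL/6 for Ccl2, Ccl7, Cxcl1, Il6 and Il11 had adjusted p values of 0.904, 0.845, 0.83, 0.51 and 0.32, which does not show that the strains respond alike.

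Collagen genes differed in their response between STR/ort and C57BL/6. In C57BL/6 9 of 13 collagens and 10 of 16 collagen processing genes rose at 1-day, and the interaction was called lower in STR/ort for 9 collagens and 8 processing genes. Against MRL/MpJ the interaction was called for 1 collagen, Col14a1, and 0 processing genes by edgeR, and MRL/MpJ joints had 3 collagens and 3 processing genes called higher. The 2 counts against C57BL/6 were the same with 1 and 2 RUVg factors, with housekeeping scaling, with the compared groups alone and without injured replicate 5. Col3a1 (chromosome 1, 45311538 to 45349706) ranged from 3201 to 4559 CPM in injured and from 2616 to 5853 CPM in uninjured STR/ort joints, and from 4464 to 8437 CPM in injured and 1283 to 1957 CPM in uninjured C57BL/6 joints. The C57BL/6 groups were thus fully apart, those of STR/ort overlapped, and the uninjured STR/ort joints were all above the uninjured C57BL/6 joints. The log2 fold changes were -0.09 in STR/ort and 1.88 in C57BL/6 (adjusted p of the interaction 4.91e-06). Col5a1 followed the same order, with -0.08 against 1.27 (adjusted p = 1.80e-05), and Col14a1 moved in opposite directions, with -1.02 against 1.31 (adjusted p = 2.53e-07). Col1a1 and Col1a2, the most abundant, did not pass the test of the interaction with C57BL/6 (adjusted p = 0.604 and 0.525).

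**Figure D5:**
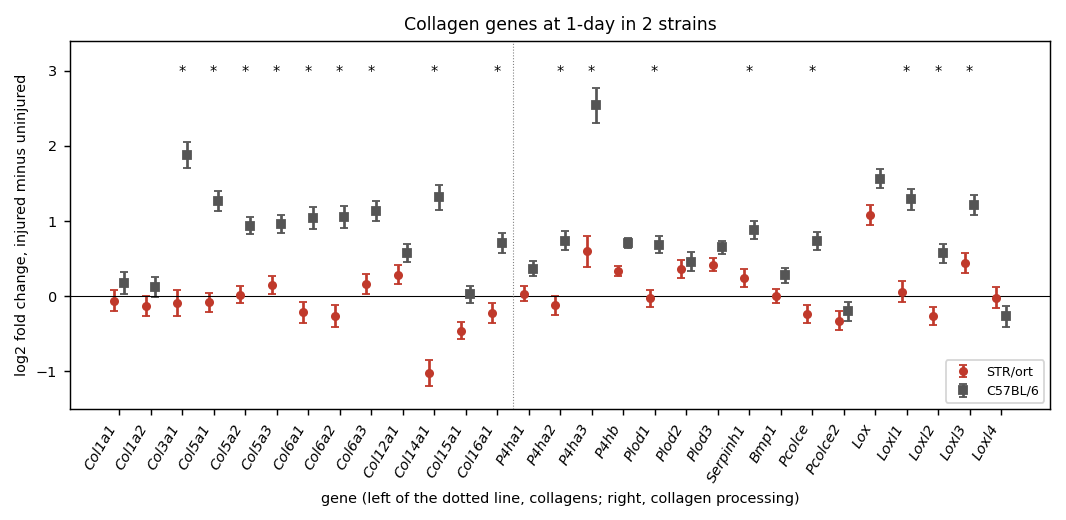
Log2 fold change of injured against uninjured joints at 1-day (vertical axis, bars ± 1 SE) for 13 collagens and 16 collagen processing genes in STR/ort (red circles) and C57BL/6 (grey squares), with a star where the interaction was called. Col3a1 is at 1.88 in C57BL/6 and -0.09 in STR/ort, and the STR/ort values farthest from 0 are Lox at 1.08 and Col14a1 at -1.02.

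Outside the collagen lists, interactions against C57BL/6 were called lower for 6 of 20 activated fibroblast, 5 of 13 tendon and 5 of 23 Wnt genes. They were also called lower for 4 of 14 synovial and 4 of 18 ADAMTS genes, against 2.48% of all genes tested. The tendon and Wnt counts were 8 and 8 without injured replicate 5, and the ADAMTS count was 2 with the compared groups alone. Single genes are given next. Angptl1, an angiopoietin-related secreted protein with the smallest adjusted p against C57BL/6, fell in STR/ort from 56.2 ± 17.7 to 16.1 ± 6.54 CPM and rose in C57BL/6 from 29.5 ± 4.38 to 65.2 ± 9.35 CPM (SD, n = 5 each, log2 fold changes -1.83 and 1.15, adjusted p = 9.50e-08). Dkk3 likewise fell in STR/ort (-0.96) and rose in C57BL/6 (0.59, adjusted p = 2.86e-06), and so did Gpnmb (-1.40 and 0.89, adjusted p = 1.51e-07). Hmox1 rose in STR/ort from 52.9 ± 6.05 to 110 ± 14.1 CPM, while its fitted change was 0.09 in C57BL/6 and 0.03 in MRL/MpJ (adjusted p = 1.43e-04 and 0.00224). Uninjured STR/ort joints had less Hmox1 than uninjured C57BL/6 (96.3 ± 17.8 CPM) and MRL/MpJ joints (139 ± 13.3 CPM), and the injured joints of the 3 strains were closer together (110, 102 and 140 CPM). Hal, histidine ammonia-lyase, was at 21.4, 22.7, 22.3, 19.1 and 11.7 CPM in injured and 5.73, 4.39, 4.2, 4.93 and 4.2 CPM in uninjured STR/ort joints, a log2 fold change of 2.03 ± 0.17 without overlap, against -0.46 in C57BL/6 (adjusted p = 3.89e-06) and 0.94 in MRL/MpJ (adjusted p = 0.0304). Aldh1a3, which makes retinoic acid, fell in STR/ort by 1.26 ± 0.13 and had a fitted change of 0.13 in MRL/MpJ (adjusted p = 0.00224). Fast muscle sums were 49220 to 77510 CPM in injured and 53970 to 126000 CPM in uninjured C57BL/6 joints, and the part of muscle content in the strain differences was not tested.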

How the data were processed

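Knee joints were measured by poly(A) RNA sequencing. Alignment by the authors used TopHat2 (version 2.0.11) against mm10, RefSeq genes were quantified with featureCounts, and the deposited values are whole-number counts without normalization. The table has 17313 entries, of which 3 repeats were dropped, and 24 gene names had been turned into dates. Each gene had at least 2 counts in at least 5 of all libraries, so the filter of the study removed 0 genes. Here 30 libraries at 1-day entered 1 fit with 6 group means in edgeR (version 4.0.16, R 4.3.3), scaled by TMM, and the quasi-likelihood test was adjusted by Benjamini-Hochberg over 17310 genes. This test gave every adjusted p printed here. The SE is the fold change over the root of F. Labels place all 10 STR/ort libraries in batch 1 and do not name the animal at 1-day, so p values measure the spread between these samples. Among 190 pairs of libraries within groups 0 were identical. Coverage precision follows from 8291716 to 13316883 counts per library.

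The members and the 41 gene lists (628 distinct genes tested) were chosen with earlier results of these data known. The genes named are the 8 largest changes each way among called genes with at least 1 CPM, the smallest adjusted p each way, up to 3 called members of each list (the 2 with the highest level where fewer than 2 were called) and, in each interaction, the smallest adjusted p each way. These are 119 genes. Other list members were named after their values were seen. Positions and promoters are from RefSeq GRCm38.p6. The alternatives were RLE factors, 1 and 2 RUVg factors, housekeeping scaling, DESeq2 (version 1.42.0), filterByExpr, the compared groups alone, a replicate block and each library left out. On simulated data with 200 of 17310 genes changed, 98% of genes raised 2-fold and 90% of genes lowered 2-fold were recovered, and 0.04% of unchanged genes were called. The study's own analysis added RUVSeq factors, whose number is not given in the sources used here. Results for some genes are not reported here, and list counts include them.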

Additional observations from a re-analysis of the deposited data

Results flagged for a closer look

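Single libraries stood far from the other 4 of their group in 19 of 228 gene and group sets, by the gap of the extreme library relative to the range of its group, and chance gives about 1 in 20. Of these, 9 were injured replicate 5, which was high for Htra4 (24.9 CPM), Itih5 (92.3 CPM), Col14a1 (104 CPM), Tnxb (91.9 CPM), Casq1 (808 CPM), Mybpc1 (1200 CPM), Atp2a2 (529 CPM) and Sbsn (30.7 CPM) and low for Top2a (450 CPM). Other injured libraries were replicate 1 for Mmp19 (41.5 CPM), and replicate 4 for Cxcl14 (236 CPM) and Adamts19 (0.0731 CPM). Among uninjured libraries replicate 1 stood apart for Cxcl3 (0.301 CPM), Retnla (36 CPM), Col6a6 (6.4 CPM) and Il1rl1 (29.1 CPM), and replicate 2 for Timp1 (78.9 CPM), Lox (169 CPM) and Ugdh (135 CPM).

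The injury response differed from that of C57BL/6 by the interaction test in edgeR for 15 named genes. The STR/ort response was lower in log2 for Angptl1 (-2.98), Col14a1 (-2.33), Dkk2 (-1.68), Dkk3 (-1.56), Htra4 (-1.44), Ccl24 (-1.43), Ogn (-1.17), Timp4 (-1.04), Itih5 (-0.83), Aldh1a3 (-0.75) and Serpinh1 (-0.65). It was higher for Hal (2.49), Hmox1 (0.95), Cxcl14 (0.87) and Selp (0.73). Against MRL/MpJ it was lower for Ccl24 (-1.87), Aldh1a3 (-1.39), Col14a1 (-1.22) and Itih5 (-0.84) and higher for Hal (1.09) and Hmox1 (1.01).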

How the results depend on the processing

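The number of genes called lower was 467, and it was 241 with 2 RUVg factors, 305 with the STR/ort libraries fitted alone and between 345 and 747 with single STR/ort libraries left out, the highest value being without injured replicate 5. The number called higher stayed within 1.5 times of 279 under every alternative run (254 to 304 with single libraries left out). Genes called in the interaction with C57BL/6 numbered 460, and 339 to 757 with single STR/ort or C57BL/6 libraries left out. The 28 called against MRL/MpJ ranged from 6 to 76 with single STR/ort or MRL/MpJ libraries left out. The leave-outs of C57BL/6 and MRL/MpJ libraries were chosen after seeing the data. With single libraries left out, some lists without a call in a direction gained calls. These were 1 lower (plasminogen, acute-phase and glucocorticoid, T cell and erythroid genes), 1 higher (osteoclast, mast cell and tendon genes) or up to 2 lower (chaperones). The causes were not tested. Of 89 named genes called, 73 kept the call under every setting and 0 changed direction.

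The replicate numbers of the labels were checked for pairing. Deviations of same-numbered joints correlated between -0.289 and 0.528 and exceeded 0.1 in 3 of 5 pairs, and 3 injured and 3 uninjured libraries correlated best with their own number. Injured replicate 4 correlated best with uninjured replicate 5 (0.372) and injured replicate 5 with uninjured replicate 4 (0.483). The uninjured joints are contralateral joints, but the labels do not say which joints share an animal, so the test took no account of shared animals, and the block, which joins equal numbers, may not join joints of 1 animal. With the replicate block 284 genes were called higher and 468 lower, with interactions of 456 and 35 genes.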

Other observations

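Interferon-stimulated genes, of which 0 were called between injured and uninjured joints by edgeR, were high in the libraries numbered 2 of both groups. Of 18 such genes 17 had their highest injured level in injured replicate 2 and 14 their highest uninjured level in uninjured replicate 2, with 14 in both. The summed level was 820.4 CPM in injured replicate 2 and 765.6 CPM in uninjured replicate 2, against 290.6 to 480.6 CPM in the other injured and 281.8 to 503.3 CPM in the other uninjured joints.

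Joints taken before injury (4 libraries, 0-day) were not always at the level of the uninjured joints at 1-day, a comparison of different animals made without a test. Cxcl1 was at 37.5, 19.4, 14.2 and 11.5 CPM at 0-day, between or above the 1-day means of 3.13 CPM in uninjured and 28.9 CPM in injured joints. Ptgs2 was at 14.2, 12.3, 7.52 and 8.22 CPM at 0-day, against means of 2.38 CPM in uninjured and 11.03 CPM in injured joints. Pdk4 and Adamts1 had 0-day means of 227.7 and 114 CPM, against 220.8 and 122.7 CPM in injured and 77.04 and 56.59 CPM in uninjured joints at 1-day. The atrophy genes Fbxo32 and Trim63 had 0-day means of 231.5 and 107 CPM, against 225 and 135.2 CPM in injured and 86.19 and 50.68 CPM in uninjured joints. The fast muscle genes Eno3 and Casq1 had 0-day means of 2375 and 1730 CPM, above both the uninjured (1168 and 827.9 CPM) and the injured means (619.1 and 440 CPM).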
